A study of Mus musculus with 11 samples.

Results

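The same CpG can be read in chromatin bound by an H3K27me3 antibody and in chromatin bound by an H3K9me3 antibody, and 14853 CpGs of mouse chromosomes 1 to 19 were read at least 3 times in each. They are 0.0729% of the 20383623 CpGs of those chromosomes, 0.810% of the 1833047 CpGs with 3 or more calls in the H3K27me3 library and 2.76% of the 538373 in the H3K9me3 library. A call is 1 reading of a CpG as methylated or not, and a level is the share of methylated calls in percent. By the deposited unified peak lists, 3878 of these shared CpGs lay in an H3K27me3 peak only, 1650 in an H3K9me3 peak only, 2169 in peaks of both marks and 7156 in neither. The members were chosen by depth in both libraries and by peak position, not by methylation.

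The question was whether DNA carrying a CpG has the same methylation when it is recovered with one mark as with the other. The cells were mouse E14 embryonic stem cells of 129/Ola background, grown in serum with leukemia inhibitory factor, without genetic change or treatment named in the labels. In CUT&Tag-BS, antibody-bound protein A-Tn5 transposase cuts the marked chromatin in permeabilized cells and inserts methylated adapters, and the recovered DNA is bisulfite converted, so unmethylated cytosine reads as thymine. Each mark was represented by 1 library of 250000 cells, H3K27me3 with 37177077 CpG calls and H3K9me3 run 2, read in 75-bp pairs, with 6355757. Side by side stand the H3K27me3 libraries of 100000 and 20000 cells, H3K9me3 run 1, read in 35-bp pairs, and H3K4me1 run 2. Run 1 and run 2 may be the same library read again, so run 1 was not taken as a replicate, and no library is stated to come from a separate culture.

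H3K27me3 is laid down by Polycomb repressive complex 2, most densely at CpG islands, which usually lack DNA methylation. H3K9me3 marks heterochromatin, where DNA is usually methylated, and is recruited by zinc finger proteins to repeats and to imprinting control regions. At an imprinted control region the copy inherited from one parent is methylated and the other is not, and at several such regions H3K9me3 has been found on the methylated copy and H3K27me3 on the other.

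The promoter windows of Nap1l5, Kcnq1ot1, Peg3 and Zfp775 show where the shared CpGs lay in peaks that differed between the libraries. Each runs from 250 bp before to 50 bp after a gene start in RefSeq, build GRCm38.p6 (mm10), written 5′ to 3′ on the gene's strand, and capitals mark the shared CpGs.
Nap1l5, chr6:58907077-58907376, minus strand: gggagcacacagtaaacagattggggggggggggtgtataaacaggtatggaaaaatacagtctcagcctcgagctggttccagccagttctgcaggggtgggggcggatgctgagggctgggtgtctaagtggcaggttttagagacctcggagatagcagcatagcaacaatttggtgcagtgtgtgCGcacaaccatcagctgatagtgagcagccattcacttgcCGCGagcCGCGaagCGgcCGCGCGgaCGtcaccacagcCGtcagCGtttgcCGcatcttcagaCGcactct
Kcnq1ot1, chr7:143296498-143296797, minus strand: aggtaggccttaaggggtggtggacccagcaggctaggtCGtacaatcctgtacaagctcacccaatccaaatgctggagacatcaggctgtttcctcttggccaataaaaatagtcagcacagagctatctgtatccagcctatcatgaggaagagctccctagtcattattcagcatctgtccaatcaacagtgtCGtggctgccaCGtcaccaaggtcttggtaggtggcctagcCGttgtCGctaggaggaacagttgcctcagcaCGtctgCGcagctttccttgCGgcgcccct
Peg3, chr7:6730370-6730669, minus strand: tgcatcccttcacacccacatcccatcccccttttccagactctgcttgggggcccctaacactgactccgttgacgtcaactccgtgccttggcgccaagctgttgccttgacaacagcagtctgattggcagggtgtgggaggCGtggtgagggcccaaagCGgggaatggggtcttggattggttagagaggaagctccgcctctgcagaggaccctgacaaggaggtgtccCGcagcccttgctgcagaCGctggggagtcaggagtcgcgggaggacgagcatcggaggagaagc
Zfp775, chr6:48601757-48602056, plus strand: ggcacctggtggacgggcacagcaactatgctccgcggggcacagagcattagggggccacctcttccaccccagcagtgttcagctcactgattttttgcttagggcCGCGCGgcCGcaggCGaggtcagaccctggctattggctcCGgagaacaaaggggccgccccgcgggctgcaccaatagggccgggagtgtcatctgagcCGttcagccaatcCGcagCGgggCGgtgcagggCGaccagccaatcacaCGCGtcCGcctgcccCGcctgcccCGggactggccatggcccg
Nap1l5 is a paternally expressed retrogene inside Herc3, and 14 of the 17 CpGs of its window were shared. At those 14 CpGs the H3K27me3 library had 4 methylated of 176 calls (2.27%, 95% Wilson interval 0.887 to 5.70%), and the H3K9me3 library had 83 of 94 (88.3%, 80.2 to 93.3%). Kcnq1ot1 is a long noncoding RNA started on the paternal chromosome inside Kcnq1, and 8 of the 9 CpGs of its window were shared. They had 0 methylated of 38 calls with H3K27me3, which allows up to 7.89%, and 27 of 33 with H3K9me3 (81.8%, 65.6 to 91.4%). Both windows were thus nearly unmethylated in one library and mostly methylated in the other.

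Peg3, a paternally expressed zinc finger gene, had 4 shared CpGs among the 13 of its window. They gave 0 methylated of 21 calls with H3K27me3, which allows up to 14.3%, and 13 of 16 with H3K9me3 (81.2%, 57.0 to 93.4%). Zfp775, a zinc finger gene that was not on the imprinted list, had 16 shared CpGs among 24, with 6 of 61 calls methylated (9.84%, 4.59 to 19.8%) against 20 of 59 (33.9%, 23.1 to 46.6%). The separate 100000-cell H3K27me3 library had 6 methylated of 98 calls at the Nap1l5 CpGs, 0 of 12 at Kcnq1ot1, 0 of 9 at Peg3 and 5 of 45 at Zfp775. H3K9me3 run 1 had 30 of 32, 11 of 15, 1 of 2 and 6 of 29 at the same CpGs. At Nap1l5, Kcnq1ot1 and Zfp775 the 100000-cell library stood with the 250000-cell library, and at Nap1l5 and Kcnq1ot1 run 1 stood with run 2, while Peg3 was too shallow in run 1 and run 1 at Zfp775 lay between the compared libraries. The letters TGCCGC, the core recognized by the imprint-keeping zinc finger protein ZFP57, occurred in 2 places on either strand of the Nap1l5 window and in none of the other 3. Of all 32851 promoter windows of this length, 11.6% held these letters.

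With each CpG weighing the same, shared CpGs averaged more methylation in the H3K9me3 library in each peak class, with the widest gap where both marks had a peak. In peaks of both marks the mean level per CpG was 43.9% with H3K27me3 and 62.0% with H3K9me3, a difference of 18 percentage points. The difference was 4.69 points in H3K27me3-only peaks (38.1 against 42.8%), 5.59 in H3K9me3-only peaks (58.9 against 64.5%) and 4.71 outside peaks of either mark (46.9 against 51.6%). Summed calls gave 37.5% (36.9 to 38.1%) and 65.2% (64.4 to 66.0%) in the both-peak class, a difference of 27.7 points, but a wider one, 47.2 points, in neither peak, so the order of the classes depends on the weighting. The both-peak difference was 8.24 points when each stretch of the genome weighed the same, an alternative chosen after seeing the data, and 7.27 at the 76 CpGs with 10 calls in each library. With 10 calls the H3K9me3-only class had 5 CpGs and a difference of -2.31. With 1 library per mark these are differences between libraries, without a replicate check. The read length of the H3K27me3 libraries is not given in the labels, so read length and mark cannot be told apart, and with the 35-bp H3K9me3 run 1 in place of run 2 the both-peak difference was 18.3 points. Since calls on one fragment or its amplified copies are not independent, intervals here and below cover counting error only.

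**Figure D1:**
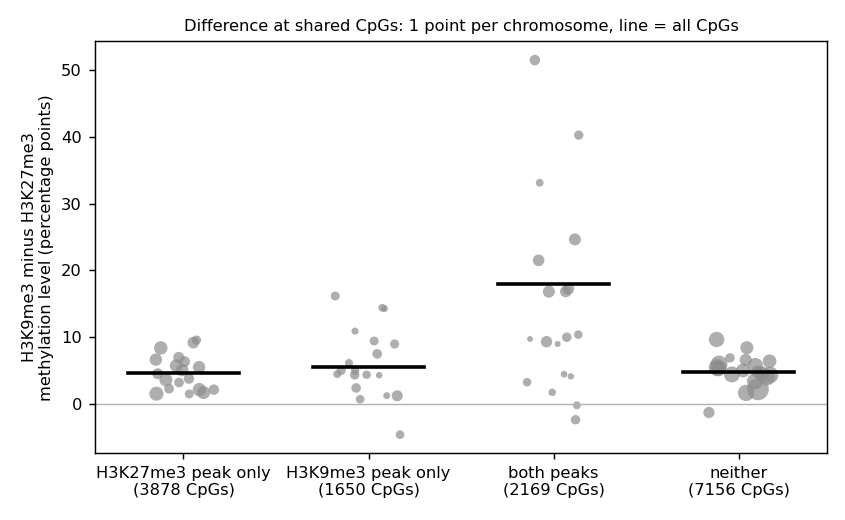
The vertical axis gives the H3K9me3 minus H3K27me3 methylation level at shared CpGs in percentage points, by peak class; each grey point is 1 chromosome, sized by its number of CpGs, and the black line is the mean over all CpGs. The line for both peaks lies at 18 points, with chromosomes from -2.37 to 51.5, and the other 3 lines lie between 4.69 and 5.59.

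The both-peak difference was uneven along the genome. It was above 0 on 17 of 19 chromosomes, from -2.37 points on chromosome 3 to 51.5 on chromosome 2, where 1 Gnas peak holds 95 of the 155 CpGs of this class. Leaving out 1 chromosome at a time gave 15.4 to 19.2 points. The 2169 CpGs fell into 207 stretches covered by both lists, with a median difference of only 3.33 points. Among the 124 stretches with 5 or more CpGs, 22 differed by 20 points or more and none by as much in the other direction, and those 22 held 29.1% of the CpGs of the class. In H3K27me3-only peaks the difference was positive on all 19 chromosomes but small, from 1.49 to 9.56 points.

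**Figure D2:**
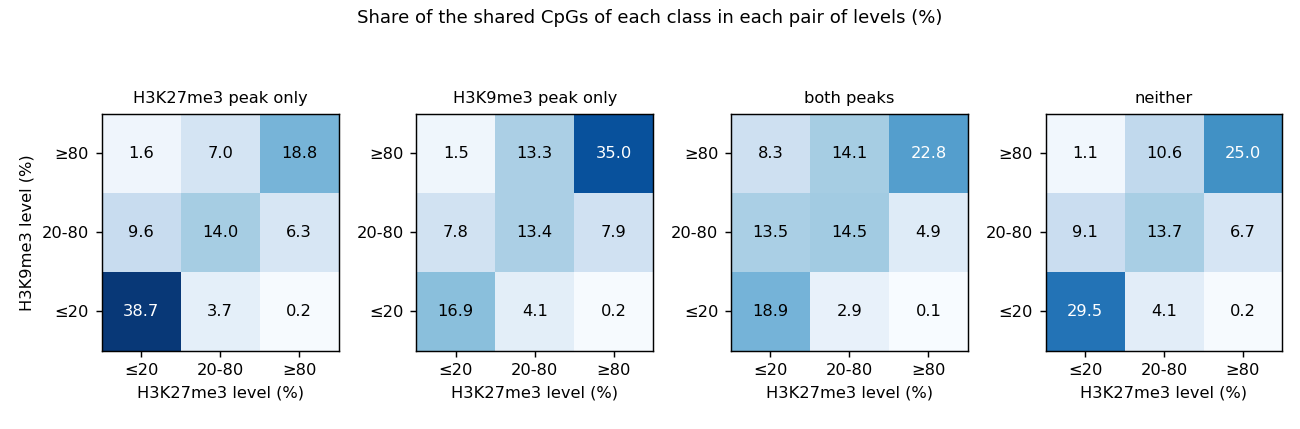
Each panel is a peak class; the horizontal axis is the level in the H3K27me3 library and the vertical axis that in the H3K9me3 library, in 3 ranges of percent, and each square gives the percent of the CpGs of the class. The upper left square, low in H3K27me3 and high in H3K9me3, holds 8.34% in both peaks and 1.13 to 1.62% in the other classes.

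Most shared CpGs were in the same state in both libraries, and the CpGs in opposite states were nearly all of one kind. Levels of 20% or less in both libraries were found at 29.0% of all shared CpGs, and levels of 80% or more in both at 24.2%. In peaks of both marks 181 CpGs (8.34%) were at 20% or less with H3K27me3 and at 80% or more with H3K9me3, and 3 (0.138%) were the other way round. The first kind made up 63 CpGs (1.62%) in H3K27me3-only peaks, 25 (1.52%) in H3K9me3-only peaks and 81 (1.13%) in neither, against 0.181 to 0.182% for the reverse in each of these classes.

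The other libraries were read at the 181 CpGs of the both-peak class that were low with H3K27me3 and high with H3K9me3. The 100000-cell H3K27me3 library had 3 or more calls at 149 of them, with a mean level of 11%, 121 at 20% or less and 1 at 80% or more. H3K4me1 run 2, from a mark of enhancers and active gene flanks, covered 24, with a mean of 13.7%, 19 at 20% or less and none at 80% or more. H3K9me3 run 1 covered 52, with a mean of 96.5%, 47 at 80% or more and none at 20% or less. The 250000-cell library and run 2 chose these CpGs, and run 1 may be the library of run 2. At the 350 such CpGs of all classes the agreement was weaker, with 163 of the 230 read in the 100000-cell library at 20% or less and 4 at 80% or more. Over the 1637 both-peak CpGs with 3 calls in the 100000-cell library, that library averaged 41.7%, the 250000-cell library 41.9% and H3K9me3 run 2 60.2%.

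The 100000-cell library also gives a way to sort CpGs by a measurement that neither compared library supplied. CpGs with 5 or more calls in it were put in bins of 20 points. In peaks of both marks, the 570 CpGs at 0 to 20% in that library had 7.31% methylation with 250000 cells and 35.9% with H3K9me3, a difference of 28.6 points. The difference was 23.2 points at 20 to 40%, 19.7 at 40 to 60%, 10.5 at 60 to 80% and 1.08 at 80 to 100%, in 143, 122, 129 and 300 CpGs. The difference thus narrowed as the level in the 100000-cell library rose. The 250000-cell level rose with it, to 89.4% in the highest bin, which leaves little room for a higher H3K9me3 level. The part of this limit in the narrowing was not tested. Outside peaks of either mark the lowest bin differed by 3.05 points and in H3K27me3-only peaks by 4.75, and the widest differences there, 14.2 and 13.9 points, were in the bin of 20 to 40%.

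**Figure D3:**
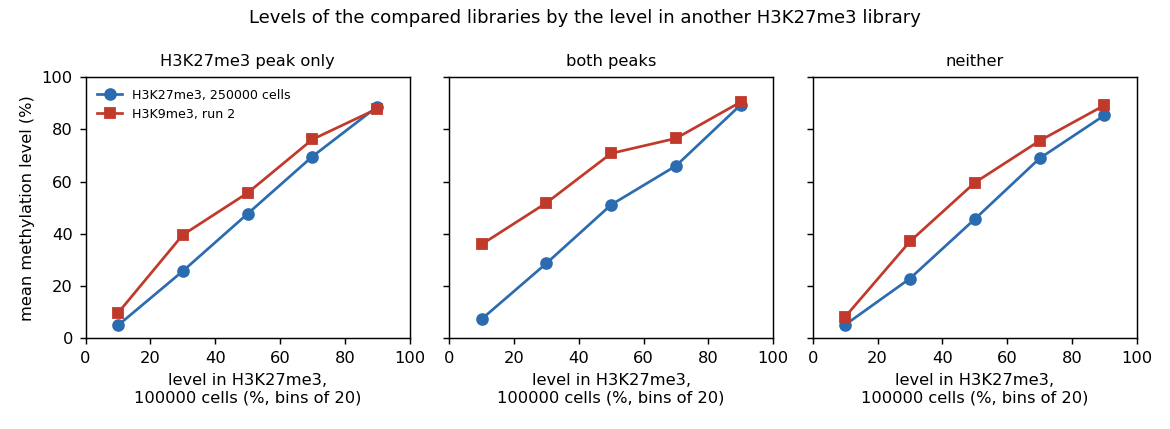
The horizontal axis is the level in the 100000-cell H3K27me3 library in bins of 20 percent, and the vertical axis the mean level in the 250000-cell H3K27me3 library (blue circles) and H3K9me3 run 2 (red squares), for 3 peak classes. In both peaks the lowest bin has 7.31% against 35.9%, and the lines meet in the highest bin at 89.4 and 90.5%.

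The shared CpGs lay in CpG-dense sequence. Within 250 bp on either side of a shared CpG, itself included, lay a median of 23 CpGs in both peaks, 17.5 in H3K27me3-only peaks, 10 in H3K9me3-only peaks and 13 in neither, against 6 around all CpGs of these chromosomes. The both-peak difference was 4.89 points where the window held 1 to 5 CpGs and 3.40 at 6 to 10. It was 10.7 at 11 to 20, 29.0 at 21 to 40 (27.7 against 56.6%, 889 CpGs) and 22.4 at 41 or more (13.0 against 35.4%, 294 CpGs). At 21 to 40 CpGs the difference was 16.1 points in H3K9me3-only peaks, 7.62 in H3K27me3-only peaks and 8.52 in neither. An H3K4me1 peak covered 109 of the both-peak CpGs, which had 19.7 and 43.0%.

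The difference was widest near H3K9me3 peaks among CpGs outside them. H3K27me3-only CpGs within 1 kb of an H3K9me3 peak differed by 9.47 points (243 CpGs), against 5.02 at 1 to 10 kb, 3.75 at 10 to 100 kb and 5.09 beyond. For CpGs in neither peak the differences at the same distances were 6.77, 4.97, 4.26 and 5.12 points.

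Shared CpGs do not stand for each library as a whole. Of the calls of the H3K27me3 library, 82.9% lay in H3K27me3 peaks and 0.359% in H3K9me3 peaks, while 33.2% of the H3K9me3 calls lay in H3K9me3 peaks and 3.20% in H3K27me3 peaks. All 309362 CpGs of H3K9me3-only peaks with 3 or more H3K9me3 calls averaged 85.7%, against 64.5% at the 1650 shared ones. Outside peaks the averages were 81.9% at all and 51.6% at shared CpGs with H3K9me3, and 67.7 and 46.9% with H3K27me3. In peaks of both marks they stood closer, 63.2 and 62.0% with H3K9me3 and 41.1 and 43.9% with H3K27me3. The median depth at shared CpGs was 5 calls with H3K27me3 and 4 with H3K9me3.

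Peak by peak, the differences that passed both the test and a minimum size were toward more methylation with H3K9me3. Of 1293 H3K27me3 and 940 H3K9me3 peaks holding a shared CpG, 358 and 191 held at least 5 and were tested by Fisher's exact test on summed calls, two-sided, with Benjamini-Hochberg adjustment over all 549. A peak was called at an adjusted p under 0.05 and a mean difference over its CpGs of at least 20 points. By this rule 66 peaks (12%) were called higher with H3K9me3 and 0 (0%) higher with H3K27me3. At an adjusted p under 0.05 and without the minimum difference, 102 peaks had a positive and 9 a negative mean difference. The sign is that of the mean over CpGs, while the test compares summed calls. In 0 of the 9 was the summed level also lower with H3K9me3. Without adjustment, 21 peaks with a negative mean difference had p under 0.05 by Fisher's exact test on summed calls. A Cochran-Mantel-Haenszel test, stratified by CpG, called 66 and 1. That 1, chosen after its values were seen, was a wide H3K27me3 peak at Ascl2, a trophoblast transcription factor gene, at chr7:142955819-142989249. It had 130 of 145 calls methylated with H3K27me3 and 14 of 20 with H3K9me3 over 5 CpGs, a difference of -23.1 points (adjusted p = 0.0386, against 0.103 by Fisher's exact test). Ascl2 was not a member of the imprinted list used below, so the counts for that list leave this peak out. The test compares these 2 libraries, not the marks.

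**Figure D4:**
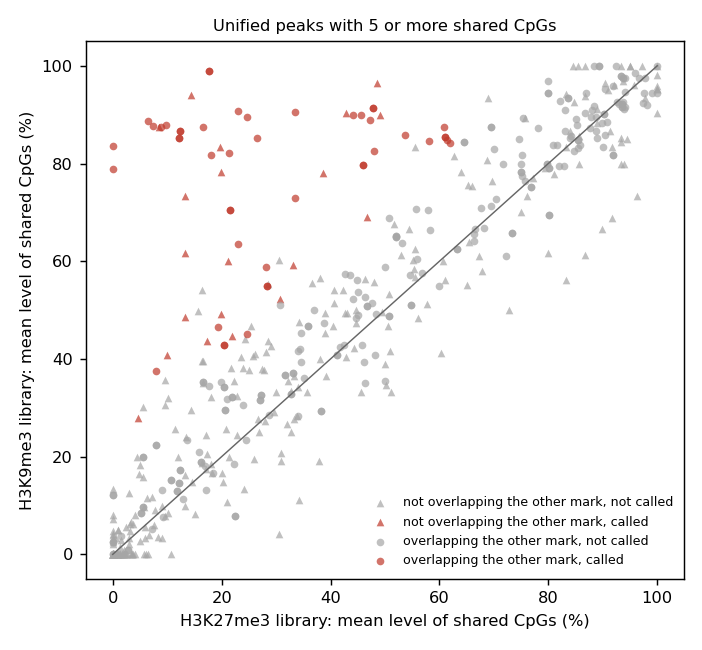
Each point is 1 unified peak with 5 or more shared CpGs; the axes give the mean methylation level of its shared CpGs in percent in the H3K27me3 library (horizontal) and the H3K9me3 library (vertical), red points were called, circles overlap a peak of the other mark and triangles do not. The 66 red points all lie above the diagonal, with a median of 21.7% on the horizontal and 83.4% on the vertical axis.

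Peaks of the lists can cover each other, and the 66 called peaks fell into 43 separate places on 17 chromosomes. Of the 265 tested peaks that overlapped a peak of the other mark by at least 1 bp, 46 (17.4%) were called, and of the 284 that did not, 20 (7.04%). With an overlap of at least 50% of the peak's length, 26 of 125 (20.8%) and 40 of 424 (9.43%) were called, so most called peaks then counted as not overlapping. Under the 1-bp rule the overlapping peaks had more calls, with medians of 109 and 61 in the H3K27me3 and H3K9me3 libraries against 57.5 and 26, and the part of depth in the unequal share was not tested. Over all 549 peaks the median difference was 2.86 points, from -27.1 to 83.5. Called peaks had a median of 26.5 CpGs within 250 bp of their shared CpGs against 19 in the rest, and a gene start lay in 40.9% of them against 38.1%. They were also deeper, with median calls of 200.5 and 104 against 79 and 37.

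Between the H3K27me3 libraries the same test called no peak. At 389 peaks with 5 or more CpGs read 3 times in all 3 libraries, 100000 against 250000 cells gave 0 called peaks in either direction (0%), with 23 at an unadjusted p under 0.05, by Fisher's exact test. The median absolute difference was 2.78 points and the range -28.4 to 25. On these CpGs H3K9me3 run 2 gave 58 called peaks (14.9%) against the 250000-cell library and 56 (14.4%) against the 100000-cell library, all higher with H3K9me3. The H3K27me3 pair had more calls per peak (medians of 118 and 85) than H3K9me3 (40). In the 66 called peaks, those with at least 20 calls in a library had median levels of 21% with 250000 cells (66 peaks), 25.6% with 100000 cells (59) and 16.6% with 20000 cells (34). The medians were 83.7% in H3K9me3 run 2 (63), 86.9% in run 1 (41) and 24.1% in H3K4me1 run 2 (23). The 250000-cell library and run 2 made these calls, and the medians cover different peaks. The ranges overlapped, reaching 72.5% with 100000 cells and 84.8% with 20000 cells, and going down to 22.7% in run 2 and 21.4% in run 1.

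The 10 named peaks were taken by the size of their difference from the called peaks with at least 10 shared CpGs and 50 calls in each library, outside chromosome 18, that had the same sign with the 100000-cell library and with run 1 where these had 20 calls. That rule fixes the direction in those libraries, and their levels are given as a description. All 10 overlapped a peak of the other mark, as did 265 of all 549 tested peaks and 46 of the 66 called ones. Tested peaks with such an overlap also held more shared CpGs, a median of 13 against 7, and the rule asked for at least 10. Their differences ran from 48.9 to 82.2 points, and their adjusted p-values by Fisher's exact test were 1.16e-17 or smaller. Of their 327 shared CpGs, 319 were higher with H3K9me3. Among all shared CpGs 36.7% were higher with H3K9me3, 37.7% equal and 25.6% lower. The peaks were taken by the size of this difference in the compared libraries, so these values describe the choice and test nothing further.

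Among the named peaks, Kcnq1ot1, Gnas and Nap1l5 are imprinted genes. The H3K9me3 peak at the Kcnq1ot1 start, chr7:143294960-143297586 inside Kcnq1, had 3 of 55 calls methylated with H3K27me3 (5.45%, 1.87 to 14.9%) and 45 of 52 with H3K9me3 (86.5%, 74.7 to 93.3%). Its mean difference over 13 CpGs was 82.2 points, the 100000-cell library had 0% of 18 calls and run 1 77.8% of 18. Its 9 CpGs after the peak centre were at 0% with H3K27me3 and at 66.7 to 100% with H3K9me3. The 4 before it averaged 20.8% with H3K27me3 and 100% with H3K9me3.

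Gnas, which encodes a stimulatory G-protein subunit in a complex imprinted locus, had the largest number of CpGs. Its H3K27me3 peak chr2:174296290-174301914 held 95, with 142 of 1793 calls methylated (7.92%, 6.76 to 9.26%) against 295 of 341 (86.5%, 82.5 to 89.7%), and every one of the 95 was higher with H3K9me3. The levels were 8.66% of 1351 calls with 100000 cells, 9.69% of 258 with 20000 cells, 10.5% of 152 with H3K4me1 and 90.9% of 121 with run 1. The 3 H3K27me3 libraries and H3K4me1 thus stood at 7.92 to 10.5%, and the H3K9me3 runs at 86.5 and 90.9%. The Nap1l5 peak, chr6:58905916-58908232 in Herc3, had 26 of 315 calls methylated (8.25%, 5.69 to 11.8%) against 138 of 157 (87.9%, 81.9 to 92.1%), with 6.02% of 216 in the 100000-cell library and 86.9% of 61 in run 1.

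Other named peaks lay at genes outside the imprinted list. At Zfp30, a zinc finger gene, chr7:29792732-29793732 had 9 of 71 calls methylated (12.7%, 6.81 to 22.4%) against 87 of 104 (83.7%, 75.4 to 89.5%), with 25.6% of 39 at 100000 cells and 92.7% of 41 in run 1. At Gp5, which encodes a platelet glycoprotein, chr16:30307779-30310427 had 26 of 139 (18.7%, 13.1 to 26.0%) against 69 of 79 (87.3%, 78.2 to 93.0%). At Gm40843 and LOC115488029, chr12:19246414-19247460 had 54 of 427 (12.6%, 9.82 to 16.1%) against 79 of 80 (98.8%, 93.3 to 99.8%). Mean levels per CpG at these 3 peaks were 12.2, 16.5 and 17.6% with H3K27me3 and 85.3, 87.5 and 99% with H3K9me3.

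At 4 further named peaks the H3K27me3 level changed along the peak while the H3K9me3 mean was 67.9% or more on both sides. The peak chr9:89878396-89880239 lies between genes, 14368 bp from 4930524O08Rik and 29269 bp from the start of Rasgrf1, an imprinted gene. Rasgrf1 is on the imprinted list used below, but the peak lies too far from it to enter the counts of that list. The 11 shared CpGs before the centre of this peak averaged 57.1% with H3K27me3 and the 21 after it 5.30%, against 94.7 and 88.7% with H3K9me3. At Zic4, a transcription factor gene of the nervous system, chr9:91384642-91388336 averaged 43.0% and 17.7% on the 2 sides with H3K27me3, against 100 and 85.5%. At Gm18180 and Spata3, chr1:86015706-86018972 averaged 89.0% at 4 CpGs before the centre and 8.85% at 31 after it, against 81.2 and 81.8%. At Lrrc8d, which encodes a volume-regulated anion channel subunit, chr5:105731657-105733823 averaged 13.4% at 34 CpGs and 77.3% at 5, against 67.9 and 88.3%. Side means with H3K27me3 also differed at Gm40843 (2.97 and 22.5%) and at Gp5 (100% at 1 CpG and 11.9% at 18). The same held for the imprinted genes Kcnq1ot1 (20.8% at 4 CpGs and 0% at 9) and Nap1l5 (4.6% at 10 and 17.0% at 17). At Gnas (8.26 and 9.15%) and Zfp30 (12.4 and 11.7%) the side means were close. The side difference was noticed in these data and was not tested.

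**Figure D5:**
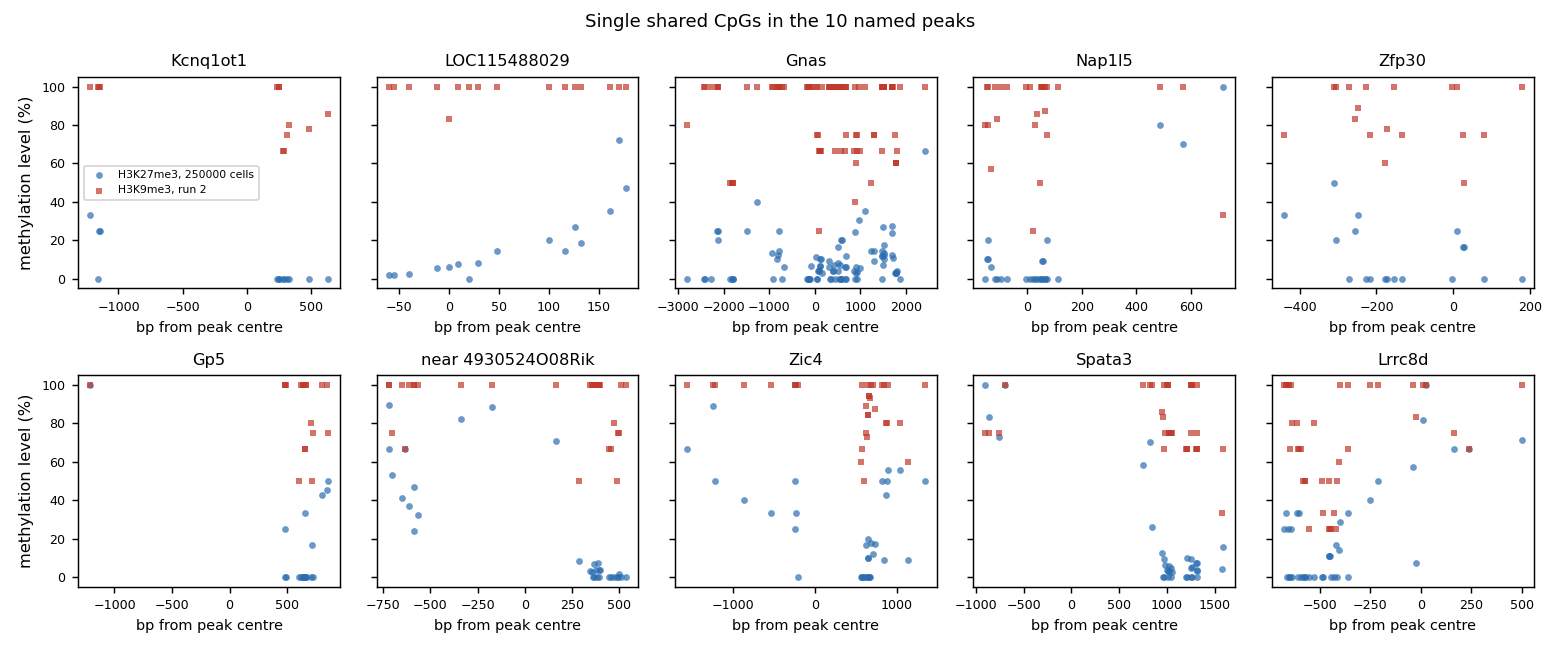
Each panel is 1 named peak; the horizontal axis is the distance from the peak centre in bp, the vertical axis the methylation level of a single shared CpG in percent, with blue circles for the H3K27me3 library and red squares for the H3K9me3 library. At Gnas all 95 red squares lie above their blue circles, and at Spata3 the 4 leftmost CpGs average 89.0% in blue against 8.85% for the rest.

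Gene lists, chosen with earlier results of these data known, were read within 2000 bp of each gene, so their shares are a description. Of 25 imprinted genes, 9 had a tested peak and 6 a called one, and 9 of their 13 tested peaks were called (69.2%, against 12% of all tested peaks), with a median difference of 74.2 points against 2.86. Beside Kcnq1ot1, Gnas with its antisense Nespas, and Nap1l5, the called genes were Peg3 and Zrsr1. Nespas and Gnas share the same peaks. At Kcnq1ot1, Gnas, Nap1l5 and Peg3 the 2 called peaks were the same place counted in both peak lists. The share and the median difference thus count each of these places 2 times. Peg3 had 8 CpGs at 7.36 and 87.7% in chr7:6730173-6732753, with 4 of 46 against 29 of 33 calls methylated (Fisher's exact test, adjusted p = 6.20e-12). Zrsr1, a retrogene inside Commd1, had 7 CpGs at 42.9 and 90.3% in chr11:22966319-22973510, an H3K9me3 peak that no H3K27me3 peak overlapped, with 9 of 21 against 47 of 52 calls (adjusted p = 0.000375 by the same exact test).

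Of the tested imprinted peaks, 4 were not called. The peak over H19, a noncoding RNA whose upstream control region is methylated on the paternal copy, had 85.3 and 87.9% at 13 CpGs (adjusted p = 1 by Fisher's exact test). That over Grb10, which encodes an adaptor that restrains growth signalling, had 32.2 and 35.5% at 23 CpGs, a difference of 3.35 points (adjusted p = 0.0122 by the exact test on summed calls, below the 20-point minimum). A wide H3K27me3 peak over Kcnq1 and the far end of Kcnq1ot1 had 91.6 and 83.3% at 5 CpGs (adjusted p = 0.481 by the exact test). The fourth, an H3K27me3 peak at chr7:143298776-143504693 over Cdkn1c, a maternally expressed cell cycle inhibitor gene, had a difference of -9.48 points at 8 CpGs (adjusted p = 0.352 by the exact test).

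Of 19 germline genes, which are silenced by promoter methylation in somatic cells, 8 had a tested peak, and 0 of their 10 peaks were called, where 12% of all tested peaks were, with a median difference of 0.796 points. The lowest adjusted p among them was 0.149 by Fisher's exact test, at Mov10l1, whose 7 CpGs averaged 60.2 and 41.2%. With only 10 peaks, an absence of calls cannot be told from a share of 12%. The germline list did not hold Spata22, and the called H3K27me3 peak over that gene, chr11:73328491-73330869, is outside its counts. That peak had 15 of 70 calls methylated with H3K27me3 and 18 of 30 with H3K9me3 over 10 CpGs (adjusted p = 0.00246 by the exact test). None of the 3 tested peaks of the 18 pluripotency genes was called, where 12% of all tested peaks were. All 3 lay at Dppa3 (median 4.46 points). Among 70 developmental transcription factor genes 2 had a tested peak, and 1 of these 2 peaks was called (50%, against 12% of all tested peaks). The one over Six2 and Six3, chr17:85597042-85698662, was called at 48.5 and 96.4% over 7 CpGs, with 43 of 88 against 25 of 26 calls methylated (adjusted p = 6.28e-05 by the exact test), and the one at Nkx2-1 was not, with a difference of 9.50 points. The list did not hold En1, Nr2f2, Zic1 or Zic4, and called H3K27me3 peaks over these genes are outside its counts. Of 8 tested peaks at 6 zinc finger genes 4 were called (50%, against 12% of all tested peaks). They are 2 places counted in both peak lists, Zfp30 and Zfp775. The place at Zfp768, also in both lists, fell just short of the minimum at 19.99 points (adjusted p = 0.000196 by Fisher's exact test). With 3, 2 and 8 peaks, the shares of these 3 lists cannot be told from 12%. The 30 CpGs of Zfp775 averaged 20.5 and 42.9%. None of the 8 DNA methylation enzyme genes, 11 H3K9 methylation genes or 13 Polycomb genes had a tested peak.

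A sum of calls over all CpGs weighs a few very deep CpGs heavily. Outside peaks, 261 CpGs with more than 100 H3K9me3 calls, on 7 chromosomes, held 72.9% of the H3K9me3 calls of their class. The pooled levels of these 261 CpGs were 75.9% with H3K27me3 and 85.6% with H3K9me3. Over all CpGs of that class the pooled levels were 28.3% with H3K27me3 and 75.6% with H3K9me3. That is 47.2 points, against 4.71 when each CpG weighs the same. In peaks of both marks 10 CpGs were that deep and held 16.4% of the class's H3K9me3 calls. Their pooled levels were 94.4 and 92.6%.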

How the data were processed

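CUT&Tag-BS libraries of mouse E14 cells were analysed from 1 deposited table of methylated and total call counts per CpG for 8 libraries, whole numbers that the authors did not normalize (0 count columns were left unused), and from the deposited unified peak lists, which hold positions without scores. The submitters' processing notes name build mm10, cutadapt 1.12, Bismark 0.23.0, Bowtie2 2.3.0, HOMER 4.10.3 and bedtools 2.29.2. How amplified copies were treated is not given in the sources used here. Amplified copies and several CpGs on 1 fragment make calls dependent.

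CpGs with at least 3 calls in H3K27me3 (250000 cells) and in H3K9me3 run 2 on chromosomes 1 to 19 were kept; at the minimum depth a level takes only 4 values. Each was placed by the unified peaks. Levels were averaged per CpG, and calls per peak were tested with Fisher's exact test (scipy 1.17.1) with Benjamini-Hochberg adjustment (statsmodels 0.14.6). Intervals are 95% Wilson intervals, and beside 0 methylated calls stands the share that 3 methylated calls would give. The test was tried on simulated calls drawn independently at the real depths, so this trial does not cover the dependence of real calls. The 10 peaks named are the called ones with 10 or more shared CpGs, 50 or more calls in each library and the same sign in the 100000-cell library and in run 1 where these have 20 calls, taken by size of difference, 1 per place. Peaks of chromosome 18 were counted and not named, and imprinted genes and genes of a list with a called peak could be named also. Promoter windows and gene positions come from RefSeq GRCm38.p6, and all 395568 CG pairs of the windows on the analysed chromosomes were found in the table. The members and lists were chosen with earlier results of these data known.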

Additional observations from a re-analysis of the deposited data

Results flagged for a closer look

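Chromosome X was outside the comparison. On it 279 CpGs had 3 or more calls in both libraries. Of these, 13 (4.66%, 95% Wilson interval 2.74 to 7.81%) were at 20% or less with H3K27me3 and at 80% or more with H3K9me3. Neighbouring CpGs can share fragments and are not replicates, so the interval covers counting error only and may be too narrow. The share on chromosomes 1 to 19 was 2.36%, and the difference was not tested. A count of 0 would allow 1.08%, a limit that a few CpGs would pass. The mean levels on chromosome X were 41.8% with H3K27me3 and 60.8% with H3K9me3.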

How the results depend on the processing

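No paired analysis was possible because the comparison uses 1 library per mark, and the other libraries of a mark share no replicate numbers that could pair them. The class differences are given in the order H3K27me3-only, H3K9me3-only, both and neither. A minimum of 5 calls gave 6.36, 6.0, 15.9 and 4.78 points, and a minimum of 10 calls 1.98, -2.31, 7.27 and 3.95, on 15, 5, 76 and 547 CpGs. Summed calls gave 16.7, 10.9, 27.7 and 47.2 points. With the 100000-cell H3K27me3 library the class in neither peak differed by 3.69 points and with H3K9me3 run 1 by 3.98. The peak lists of the 2 libraries moved the H3K9me3-only class to 7.18. Alternatives chosen after seeing the data were leaving out the imprinted list (14 points in both peaks), leaving out chromosome 18, and giving each stretch the same weight (2.89, 3.67, 8.24 and 3.60). Leaving out the list removed only CpGs within 2000 bp of its genes. The named peak 29269 bp from Rasgrf1, a gene of the list, therefore stayed in. Peaks called higher with H3K9me3 numbered 36 with 5 calls (1 of them not overlapping the other mark), 2 with 10 calls (2 overlapping, 0 not) among 11 tested, 102 without a minimum difference (74 overlapping), and 29 with run 1 (22 and 7) among 117 tested. Those not overlapping numbered 7 with 10 or more CpGs, 13 at 30 points and 13 with the 100000-cell library. Requiring an overlap of 50% left 26 called peaks as overlapping and 40 as not. Peaks higher with H3K27me3 numbered 9 without a minimum difference (0 of them with summed levels also lower with H3K9me3), 1 by Cochran-Mantel-Haenszel and 2 with run 1, both on chromosome 18. With the imprinted list left out 57 peaks were called and without chromosome 18 58. Depth limits the comparison, since few shared CpGs remain at 10 calls. The cause of the other shifts was not tested.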
